A study of Saccharomyces cerevisiae with 8 samples.

Results

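Amino acid permeases are the plasma membrane proteins through which yeast takes up amino acids from its medium. The genes described here are AGP1 (YCL025C), GNP1 (YDR508C), BAP2 (YBR068C), BAP3 (YDR046C), TAT1 (YBR069C), TAT2 (YOL020W), DIP5 (YPL265W), GAP1 (YKR039W), HIP1 (YGR191W) and LYP1 (YNL268W) of Saccharomyces cerevisiae. They were chosen by gene symbol, with earlier results of these data known. Each was measured by 1 probe set, so the group holds 10 of the 5449 S. cerevisiae genes named on the array. All 10 entered the tests, together with 5439 genes in all, and the lowest permease signal on any array, that of HIP1, was 65.3 times the background of its array.

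The study hybridised RNA from 4 strains to 8 Affymetrix arrays, 2 per strain and titled biological replicates. The wild type was W303, a laboratory strain background. The double deletion was 6EA1, 1 strain in the W303 background that lacks both RPL12A and RPL12B, a gene pair for 1 protein, Rpl12, of the large ribosomal subunit. The plus RPL12A and plus RPL12B groups were 6EA1 transformed with a high copy plasmid carrying that gene, so both keep the chromosomal deletions and carry a plasmid that the wild type and the double deletion are not labelled as carrying. All strains were grown at 30 °C to early log phase (A600 of 0.5 to 0.6) in a medium of 2% glucose and 0.67% yeast nitrogen base free of amino acids, to which the nutrients a strain requires were added at 40 mg per litre. Which amino acids each strain received is not stated, so a difference in supplements between strains cannot be told apart from a difference in genotype. The study asked which genes change when Rpl12 is missing and when either copy is put back.

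Several of these permeases belong to the SPS system. In it, the membrane sensor Ssy1 detects amino acids outside the cell and acts with Ptr3 and the protease Ssy5. Ssy5 cleaves the transcription factors Stp1 and Stp2, which then enter the nucleus and, with Dal81, switch on AGP1, GNP1, BAP2, BAP3, TAT1, TAT2 and DIP5. GAP1, the general amino acid permease, is known instead for nitrogen catabolite repression, the silencing of genes for poor nitrogen sources that acts through the GATA factors Gln3 and Gat1. HIP1 and LYP1 encode permeases dedicated to histidine and lysine. Strains of the W303 background usually need leucine, histidine and tryptophan from the medium. Which of these each strain here needed is not stated.

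The deletion was seen on the arrays. RPL12A read 5321 and 5269 in the wild type, 28.8 and 6.88 in the double deletion, 6079 and 5732 in plus RPL12A, and 8.18 and 15.5 in plus RPL12B. RPL12B read 6537 and 7039.74 in the wild type, 17.3 and 1.71 in the double deletion, 48.5 and 20.1 in plus RPL12A, and 5469 and 6446 in plus RPL12B. Every group matched its label as to which RPL12 gene was present. Against the wild type, RPL12A stood at 1.11-fold in plus RPL12A and RPL12B at 0.88-fold in plus RPL12B. The copy number of the plasmids was not tested. Signals here are MAS5 values on a linear scale, scaled by the authors to the same trimmed mean on every array. Background, set by probe sets for the fission yeast Schizosaccharomyces pombe, lay between 7.42 and 8.72. Over all genes the replicates of a strain correlated at r = 0.959 (plus RPL12B) to 0.989 (wild type) on the log2 scale. The second array of the wild type, of plus RPL12A and of plus RPL12B stood apart in a 25S ribosomal RNA control, which read 148, 277 and 312 there and 2476 to 5720 on the other 5 arrays, both double deletion arrays included.

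DIP5, the permease for glutamate and aspartate, was the 1 permease gene of 10 called as different between the double deletion and the wild type, and it rose. Of all tested genes 32.5% were called in this comparison, 20.4% higher and 12.2% lower. The DIP5 signal was 2438 and 1944 in the wild type and 2743 and 3008 in the double deletion. Both double deletion arrays lay above both wild type arrays, as for 47.3% of all genes. RNA came from whole cultures, so a change in every cell and a change in some of the cells cannot be told apart. The rise was 1.32-fold, a log2 difference of 0.40 (SE 0.12, 95% interval 0.11 to 0.69, adjusted p = 0.0447 by limma with Benjamini-Hochberg adjustment over all 5439 genes, n = 2 per group). In plus RPL12A the signal was 2568 and 2555, and in plus RPL12B it was 2405 and 2113. The group means ran from 2875 ± 187 in the double deletion through 2561 ± 9.14 in plus RPL12A and 2259 ± 206 in plus RPL12B to 2191 ± 349 in the wild type (mean ± SD, n = 2). Neither plasmid strain passed the test against the double deletion, with log2 differences of -0.17 for plus RPL12A (adjusted p = 0.502) and -0.35 for plus RPL12B (adjusted p = 0.642), nor against the wild type, at 0.23 (adjusted p = 0.283) and 0.05 (adjusted p = 0.808). The call in the double deletion was lost without the second wild type array (log2 difference 0.24, adjusted p = 0.228), without either double deletion array (adjusted p = 0.114 and 0.173) and without either plus RPL12A array (adjusted p = 0.0631 and 0.063). The second wild type array is the only 1 of the 4 compared with a low 25S control, so the DIP5 difference among the high 25S arrays is the same value. The call was also lost after centring on the S. cerevisiae median (log2 difference 0.20, limma adjusted p = 0.229). Without the intensity trend in limma it was lost as well (limma adjusted p = 0.0772).

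TAT1, which carries tyrosine and other bulky amino acids, varied most among the strains of the 10 genes, and its difference missed the threshold. Its signal was 1818 and 1681 in the wild type and 904 and 1059 in the double deletion. All 6 arrays of the deletion strains were below both wild type arrays, with 1545 and 926 in plus RPL12A and 1251 and 824 in plus RPL12B. Of all genes, 28.2% (double deletion), 25.6% (plus RPL12A) and 25% (plus RPL12B) were below the wild type without overlap. The share below it in all of these strains at once was not counted. In the double deletion the TAT1 signal was 0.56 times that of the wild type, a log2 difference of -0.84 (SE 0.27, 95% interval -1.48 to -0.20, limma adjusted p = 0.0524). Against the wild type, plus RPL12A had a log2 difference of -0.55 (SE 0.27, limma adjusted p = 0.259) and plus RPL12B one of -0.78 (SE 0.27, limma adjusted p = 0.104). In both plasmid strains the replicates lay far apart, with a mean of 1236 ± 438 in plus RPL12A and 1037 ± 302 in plus RPL12B against 1750 ± 96.5 in the wild type and 982 ± 110 in the double deletion (SD, n = 2). Fitted to the wild type and double deletion arrays alone, the same difference passed with limma adjusted p = 0.00501. It passed as well when any single array of the plasmid strains was left out. It did not pass when either wild type array or either double deletion array was left out. Of 21 alternatives to the main fit, TAT1 was called in 8.

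**Figure D1:**
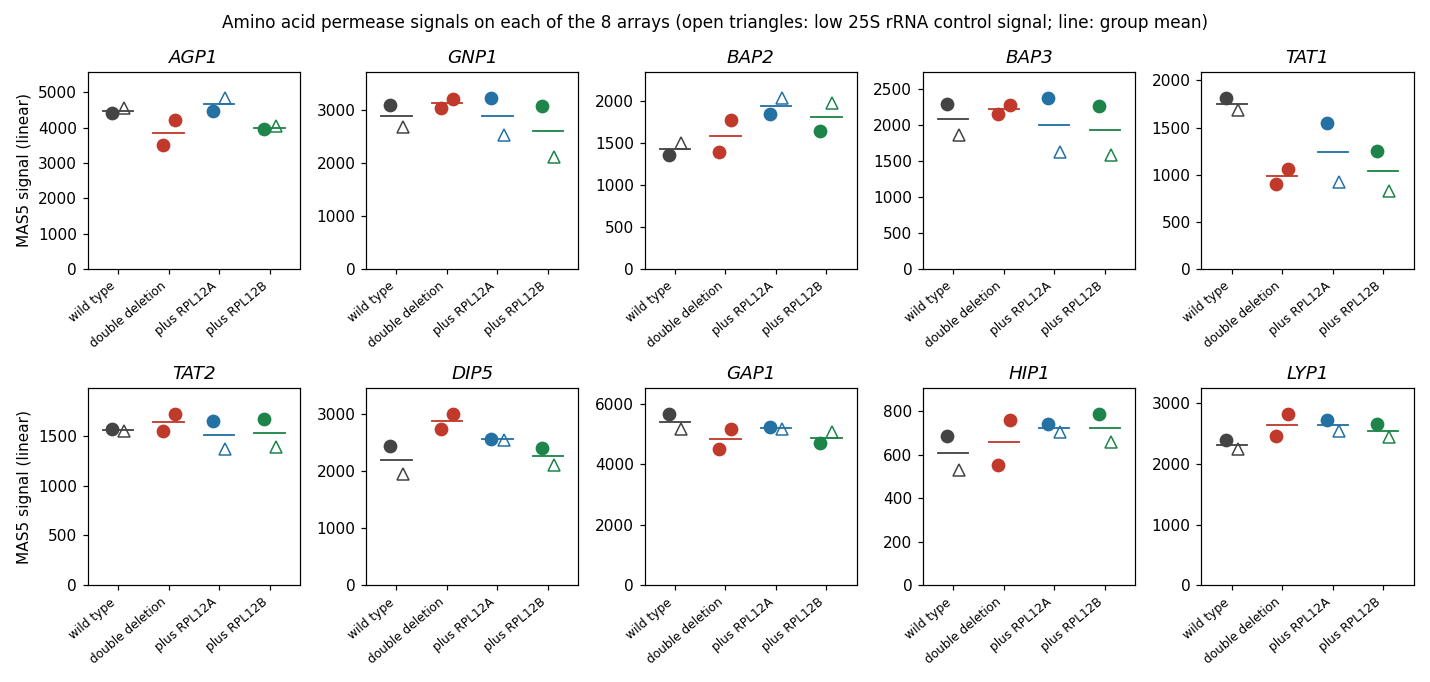
MAS5 signal (linear scale, y axis from 0) of the 10 permease genes on each of the 8 arrays, by strain (x axis); lines mark group means and open triangles mark the 3 arrays with a low 25S control signal. TAT1 is lower on all 6 deletion strain arrays (824 to 1545) than on both wild type arrays (1681 and 1818), and DIP5 is highest on both double deletion arrays (2743 and 3008). Of all genes, 28.2% (double deletion), 25.6% (plus RPL12A) and 25% (plus RPL12B) are below the wild type without overlap.

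The remaining permeases of the SPS group differed less between the double deletion and the wild type. AGP1, a permease of broad range that includes asparagine and glutamine, read 4417 and 4539.8 in the wild type, 3498 and 4203 in the double deletion, 4465 and 4847 in plus RPL12A, and 3953 and 4039 in plus RPL12B. Both double deletion arrays were below both wild type arrays, as for 28.2% of all genes. The log2 difference was -0.22 (SE 0.09, limma adjusted p = 0.105). GNP1, a glutamine permease, read 3112 and 2680.4 in the wild type, 3052 and 3216 in the double deletion, 3245 and 2532 in plus RPL12A, and 3090.1 and 2127 in plus RPL12B. Its groups overlapped in every comparison, and its difference in the double deletion was 0.12 (SE 0.19, limma adjusted p = 0.659).

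BAP2 and BAP3 are related permeases for leucine, isoleucine and valine. BAP2 read 1362 and 1501 in the wild type, 1402 and 1778 in the double deletion, 1853 and 2046 in plus RPL12A, and 1647 and 1980.01 in plus RPL12B. Both plasmid strains were above the wild type without overlap, as were 33.3% (plus RPL12A) and 35.3% (plus RPL12B) of all genes. The double deletion overlapped the wild type (log2 difference 0.14, SE 0.15, limma adjusted p = 0.48). BAP3 read 2294 and 1864 in the wild type, 2155 and 2278 in the double deletion, 2379 and 1620.2 in plus RPL12A, and 2266 and 1581 in plus RPL12B. Its lowest values were on the second arrays of the wild type and of both plasmid strains, and its groups overlapped in all 6 comparisons. TAT2, the high affinity tryptophan permease, read 1563 and 1551 in the wild type, 1549.8 and 1719.7 in the double deletion, 1647 and 1370.5 in plus RPL12A, and 1663 and 1383 in plus RPL12B. It was the steadiest of the permeases, with a ratio of 1.25 between its highest and lowest arrays, against 2.21 for TAT1.

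GAP1 read 5663 and 5149.7 in the wild type, 4485 and 5146 in the double deletion, 5228 and 5160.5 in plus RPL12A, and 4691 and 5053 in plus RPL12B. Both double deletion arrays were below both wild type arrays, as for 28.2% of all genes, the nearer pair reading 5149.7 and 5146. The log2 difference was -0.17 (SE 0.08, limma adjusted p = 0.162). HIP1 read 684 and 528 in the wild type, 551 and 761 in the double deletion, 742 and 703 in plus RPL12A, and 788 and 659 in plus RPL12B. Its double deletion arrays spanned nearly the whole range of the other strains. LYP1 read 2388 and 2240.4 in the wild type, 2457 and 2828 in the double deletion, 2733 and 2544 in plus RPL12A, and 2655 and 2448 in plus RPL12B. All 6 deletion strain arrays were above both wild type arrays, with log2 differences of 0.19 in the double deletion (limma adjusted p = 0.17), 0.19 in plus RPL12A (limma adjusted p = 0.268) and 0.14 in plus RPL12B (limma adjusted p = 0.35). Of all genes, 47.3%, 33.3% and 35.3% were above the wild type without overlap in these strains, in that order. The share above it in all of them at once was not counted.

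Comparing the double deletion with the wild type, 1 of 10 permeases passed at an adjusted p under 0.05, compared with 32.5% of all tested genes (20.4% higher and 12.2% lower). At an unadjusted p under 0.05 there were 3 permeases, DIP5, TAT1 and AGP1, compared with 44.9% of all genes. Groups of arrays did not overlap for 5 permeases, compared with 75.5% of all genes. Of these, DIP5 and LYP1 were higher, as were 47.3% of all genes, and TAT1, AGP1 and GAP1 were lower, as were 28.2%. The median log2 difference was 0.10 over the permeases and 0.14 over all tested genes. With 2 arrays against 2, an exact permutation test of a single gene cannot give a two-sided p below 0.333, so the calls rest on the spread shared across genes and strains in limma.

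The sign of most of these differences depended on how the arrays were scaled. The median difference of all genes was 0.14 as deposited, -0.06 after centring on the S. cerevisiae median, -0.0032 after quantile normalisation and 0.55 after centring on 18 hybridisation control probe sets. DIP5 was higher under all of these scalings, at 0.40, 0.20, 0.55 and 0.81 in that order, and its adjusted p was 0.229 after median centring. TAT1 was lower under all of them, at -0.84, -1.04, -0.85 and -0.43, with limma adjusted p = 0.021 after median centring. The other 8 permeases changed sign between scalings. GAP1 was called lower after median centring (-0.37, limma adjusted p = 0.0207) and higher after control centring (0.24, limma adjusted p = 0.0173).

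**Figure D2:**
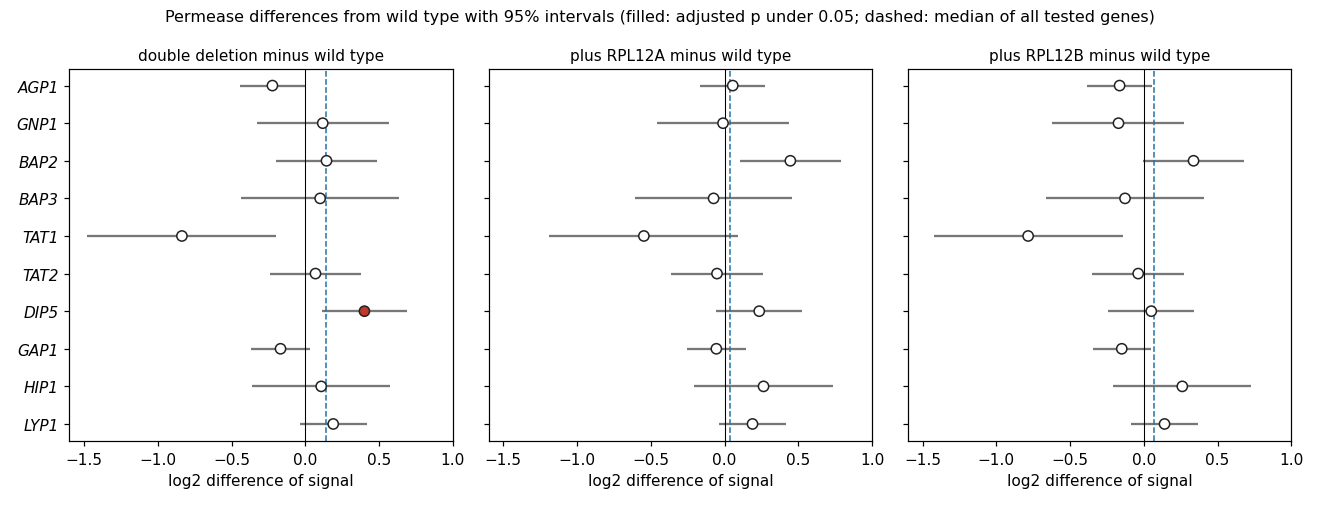
Log2 difference of signal from the wild type (x axis) for each permease (y axis) in the double deletion, plus RPL12A and plus RPL12B, with 95% intervals from limma; the dashed line is the median of all tested genes and the filled point is the call, DIP5 in the double deletion (0.40). TAT1 is the lowest in all 3 panels, at -0.84, -0.55 and -0.78, and BAP2 is the highest in both plasmid strains, at 0.45 and 0.34.

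Putting back either RPL12 gene moved no permease past the threshold. In plus RPL12A against the double deletion, 0 of 10 passed with limma, compared with 0.221% of all genes, and 1, AGP1, had an unadjusted p under 0.05, compared with 15.7%. The AGP1 difference was 0.28 (SE 0.09, limma adjusted p = 0.262). BAP2 stood at 0.30 (SE 0.15, limma adjusted p = 0.35), without overlap of the arrays, and TAT1 at 0.29 (SE 0.27, limma adjusted p = 0.597), with overlap. In plus RPL12B against the double deletion, 0 of 10 passed with limma, compared with 0.11% of all genes, and 1, DIP5, had an unadjusted p under 0.05, compared with 7.21%. The GNP1 difference was -0.29 (SE 0.19, limma adjusted p = 0.653), and the TAT1 difference was 0.05 with a 95% interval of -0.59 to 0.69 and turned to -0.11 after centring on the hybridisation controls. Arrays did not overlap for 4 permeases in the first comparison, against 51.5% of all genes, with AGP1, BAP2 and GAP1 higher (17% of all genes) and DIP5 lower (34.5%). In the second they did not overlap for 1, DIP5, which was lower, against 37.9% of all genes (12.3% higher and 25.7% lower). The sign was the same under all 4 scalings for 6 of the permeases in plus RPL12A (AGP1, BAP2, BAP3, TAT1, GNP1 and DIP5) and for 5 in plus RPL12B (BAP2, BAP3, TAT2, GNP1 and DIP5).

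Against the wild type, 0 of 10 permeases passed with limma in plus RPL12A, compared with 3.97% of all genes, and 1, BAP2, had an unadjusted p under 0.05, compared with 25.1%. The BAP2 difference was 0.45 (SE 0.15, 95% interval 0.10 to 0.79, limma adjusted p = 0.12). In plus RPL12B 0 of 10 passed with limma, compared with 9.49% of all genes, and 1, TAT1, had an unadjusted p under 0.05, compared with 31.1%. There BAP2 stood at 0.34 (SE 0.15, limma adjusted p = 0.168) and HIP1 at 0.26 (SE 0.20, limma adjusted p = 0.398). Arrays did not overlap for 5 permeases in plus RPL12A, against 58.9% of all genes, with BAP2, DIP5, HIP1 and LYP1 higher (33.3% of all genes) and TAT1 lower (25.6%). They did not overlap for 5 in plus RPL12B, against 60.3%, with BAP2 and LYP1 higher (35.3%) and AGP1, GAP1 and TAT1 lower (25%). These comparisons and that of the double deletion share the wild type arrays, so their values are not independent of each other. BAP2 was above the wild type in both plasmid strains under all 4 scalings, from 0.37 to 0.68 in plus RPL12A and from 0.22 to 0.58 in plus RPL12B. TAT1, below the wild type, HIP1 and LYP1, above it, also kept their sign under all 4 in both strains.

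Between the plasmid strains, 0 of 10 permeases passed with limma, compared with 0.0184% of all genes, and 1, AGP1, had an unadjusted p under 0.05, compared with 1.71%. AGP1 was lower in plus RPL12B on both arrays, by 0.22 on the log2 scale (SE 0.09, limma adjusted p = 1). Groups did not overlap for 3 permeases, AGP1, GAP1 and DIP5, all lower in plus RPL12B, compared with 20% of all genes (11.6% higher and 8.4% lower). In 1 test per gene across all 4 strains, 0 of 10 permeases passed with limma's F test, compared with 10.2% of all genes. The smallest adjusted p of that test was 0.151, for DIP5, and 1 permease had an unadjusted p under 0.05, compared with 32.2% of all genes. No neighbouring pair of strains in the order of a permease's means differed past the threshold, since the 1 call was between the strains at both ends of the DIP5 order.

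BAP2 and TAT1 lie next to each other on chromosome II in RefSeq's gene order. Their ratio on each array does not depend on how the array was scaled by a constant. The log2 ratio of BAP2 over TAT1 was -0.42 and -0.16 in the wild type, 0.63 and 0.75 in the double deletion, 0.26 and 1.14 in plus RPL12A, and 0.40 and 1.26 in plus RPL12B. All 6 deletion strain arrays were above both wild type arrays. The level of the ratio reflects both probe sets and has no meaning by itself, and the pair was picked for its position after its values were known, so no test was made. The second array had the higher ratio in all 4 strains. It is the low 25S array in the wild type and both plasmid strains, while both double deletion arrays had a high 25S control.

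**Figure D3:**
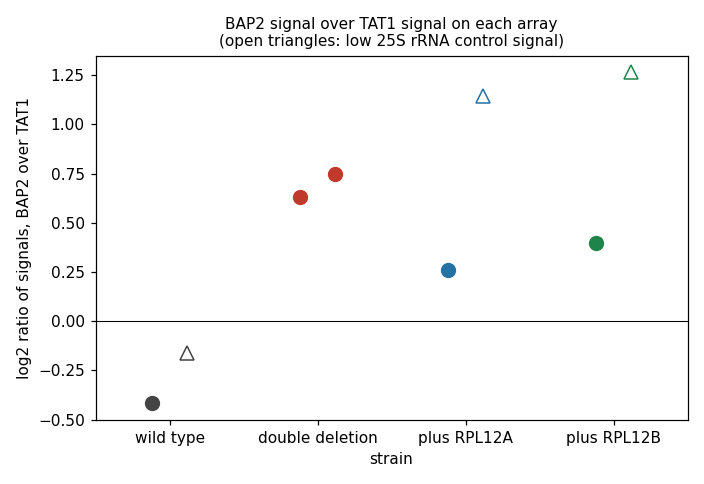
Log2 ratio of the BAP2 signal over the TAT1 signal (y axis) on each array, by strain (x axis); open triangles are the arrays with a low 25S control. Wild type arrays lie at -0.42 and -0.16 and the other 6 arrays between 0.26 and 1.26.

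Some permeases differed widely between the replicates of the plasmid strains. From the first to the second array, TAT1 differed by -0.74 in plus RPL12A and -0.60 in plus RPL12B on the log2 scale. BAP3 differed by -0.55 and -0.52, GNP1 by -0.36 and -0.54, and TAT2 by -0.27 in each. These 4 were lower by more than 0.25 on the second array of both plasmid strains, as were 14.7% of all genes. In the wild type the same differences were -0.11 for TAT1, -0.30 for BAP3, -0.22 for GNP1 and -0.01 for TAT2. In the double deletion all 10 permeases were higher on the second array, HIP1 by the most at 0.47 and GNP1 and BAP3 by the least at 0.08. Of all genes, 54.3% were lower on the second array of the double deletion. The median difference there was 0.20 over the permeases, against -0.02 over all genes.

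The second arrays of the wild type and of both plasmid strains are those with the low 25S control, so in these strains replicate number and 25S signal cannot be told apart. BAP3 and GNP1 were lower on each of these 3 arrays than on all of the other 5, a pattern held by 8.46% of all genes, and 0 permeases were higher on all 3, as 2.89% of all genes were. In a fit with a mean per strain, the low 25S arrays differed from the high ones by -0.46 for BAP3 (SE 0.07, limma adjusted p = 0.0648), -0.37 for GNP1 (SE 0.07, limma adjusted p = 0.0724) and -0.48 for TAT1 (SE 0.13, limma adjusted p = 0.104). In that fit 0 of 10 permeases passed, compared with 0.0184% of all genes, and 3 had an unadjusted p under 0.05, compared with 24.8%. This comparison was added after the data were seen. Among the high 25S arrays alone TAT1 differed from the wild type by -0.89 in the double deletion, -0.23 in plus RPL12A and -0.54 in plus RPL12B, and among the low 25S arrays by -0.86 in plus RPL12A and -1.03 in plus RPL12B. With the 25S split as a term of the fit, TAT1 passed in the double deletion (-1.08, limma adjusted p = 0.0064) and in plus RPL12B (-0.78, limma adjusted p = 0.0204). That term gives every strain the same 25S shift. From the first to the second array TAT1 differed by -0.11 in the wild type, -0.74 in plus RPL12A and -0.60 in plus RPL12B. The double deletion has no low 25S array, so its value of -1.08 rests on the shared shift. The 3′ over 5′ ratio of the TDH1 control was 1.28 and 1.33 in the wild type and 1.53 and 2.09 in the double deletion. It was 1.32 and 1.60 in plus RPL12A and 1.28 and 1.81 in plus RPL12B. That of the ACT1 control lay between 1.03 and 1.16 on the 8 arrays, with 1.04 and 1.13 in the double deletion. The part of either ratio in the permease values was not tested.

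**Figure D4:**
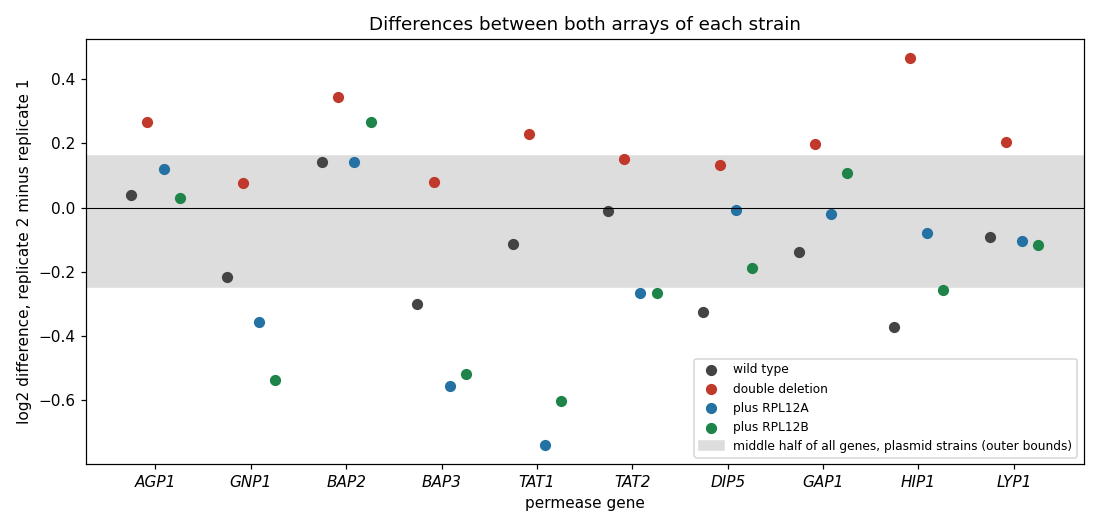
Log2 difference of the second minus the first array of each strain (y axis) for each permease (x axis), with 1 point per strain; the grey band spans the outer bounds of the quartiles of all genes in the plasmid strains (-0.25 to 0.16). TAT1, BAP3 and GNP1 lie below the band in both plasmid strains, down to -0.74, TAT2 lies just below it in both at -0.27, and in the double deletion every permease lies above 0.

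Across the 8 arrays the log2 signals of BAP3 and GNP1 correlated at r = 0.956, those of BAP3 and TAT2 at 0.911 and those of TAT2 and GNP1 at 0.873. AGP1 and GAP1 correlated at 0.773, and HIP1 and LYP1 at 0.818. BAP2 went the other way from its relative BAP3 (r = -0.52) and from its neighbour TAT1 (r = -0.51). These values describe 8 arrays that share strain, scaling and replicate differences. Of 5429 other genes, those whose signals followed TAT1 most closely over the 8 arrays were FAP7 (r = 0.971), RPC19 (r = 0.969), CNS1 (r = 0.968), IMD4 (r = 0.961) and RBG1 (r = 0.957).

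The genes around the permeases were described with 7 lists, comparing the double deletion with the wild type. These lists were chosen with earlier results of these data known, so their counts are descriptions and not tests of a pathway. Each count stands against 20.4% of all tested genes called higher and 12.2% called lower. The share called higher was 10.1% after median centring, 7.23% after quantile normalisation and 51.9% after control centring, and without an array it was 5.31% (first wild type), 3.03% (second wild type), 2.3% (first double deletion) or 11.3% (second double deletion). The other amino acid transporters of the plasma membrane rose in 5 of 10 cases and fell in 0 (20.4% and 12.2% of all genes), with a median of 0.57 against 0.14 over all genes. MMP1, the S-methylmethionine permease, read 827 and 649 in the wild type and 2378 and 2010.07 in the double deletion, a rise of 1.58 on the log2 scale (limma adjusted p = 0.0119). MUP3, a low affinity methionine permease, rose by 1.08 (limma adjusted p = 0.0454). Its arrays lay far apart, at 379 and 250 in the wild type and 909 and 465 in the double deletion. AGP3 rose by 0.97 (limma adjusted p = 0.0309) and the proline permease PUT4 by 0.87 (limma adjusted p = 0.0262). The arginine permease CAN1, a relative of LYP1, rose by 0.66 (limma adjusted p = 0.0296). The 5 that did not pass were AGP2 at 0.47, the high affinity methionine permease MUP1 at 0.28, the S-adenosylmethionine permease SAM3 at 0.06, ALP1 at -0.03 and the GABA permease UGA4 at -0.08. MMP1 was called under all 4 scalings, whereas the list held 1 call after median centring, 2 after quantile normalisation and 6 after control centring. It held 0 calls without the first double deletion array or the second wild type array, 1 without the first wild type array and 3 without the second double deletion array.

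Of the SPS sensor pathway, 4 of 10 genes rose and 0 fell (20.4% and 12.2% of all genes), with a median of 0.45. They were ASI2 (1.09, limma adjusted p = 0.00427), PTR3 (1.06, limma adjusted p = 0.00537), ASI3 (0.81, limma adjusted p = 0.0145) and STP1 (0.67, limma adjusted p = 0.0099), and all 4 were called under each scaling. PTR3 is a component of the sensor and STP1 one of its transcription factors, while Asi2 and Asi3 are inner nuclear membrane proteins that keep uncleaved Stp1 and Stp2 from acting. PTR3 read 195 and 216 in the wild type, 402 and 458 in the double deletion, 349 and 404 in plus RPL12A, and 363 and 373 in plus RPL12B. It was also called against the wild type in plus RPL12A (0.87, limma adjusted p = 0.0312) and plus RPL12B (0.84, limma adjusted p = 0.0234). The sensor gene SSY1 stood at 0.11, SSY5 at 0.48, STP2 at 0.41, GRR1, whose product is needed for signalling, at 0.22, DAL81 at 0.14 and ASI1 at -0.17, and none of these passed. Without the second wild type array 2 of the 10 were called higher (3.03% of all genes), and after control centring 8 were (51.9% of all genes).

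Genes of permease trafficking and turnover rose in 9 of 17 cases and fell in 0 (20.4% and 12.2% of all genes), with a median of 0.43. ROG3 (1.66, limma adjusted p = 0.00343) and ART5 (1.26, limma adjusted p = 0.00568) encode arrestin-related adaptors, a family that directs the ubiquitin ligase Rsp5 to permeases. LST7 (1.46, limma adjusted p = 0.00246) takes part in sorting Gap1 to the cell surface, and DOA4 (1.41, limma adjusted p = 0.00703) encodes a ubiquitin hydrolase that frees ubiquitin from endocytosed proteins. These 4 were called under each scaling, and ROG3 and LST7 were also called against the wild type in plus RPL12A (1.14 and 0.95) and plus RPL12B (1.14 and 1.05). The number called higher was 5 after median centring, with 1 called lower, 5 after quantile normalisation and 14 after control centring (10.1%, 7.23% and 51.9% of all genes). It was 3 to 5 without any single array of the wild type or the double deletion (2.3% to 11.3% of all genes). Of the vacuolar amino acid transporters 6 of 15 rose and 2 fell (20.4% and 12.2% of all genes, list median 0.16), among them VBA2 (1.17, limma adjusted p = 0.00539), ATG22 (0.64, limma adjusted p = 0.0158), AVT6 (0.61, limma adjusted p = 0.0264) and AVT3 (0.54, limma adjusted p = 0.016). The split was 3 higher and 3 lower after median centring (list median -0.04), 3 and 1 after quantile normalisation, and 8 and 0 after control centring. That list held 1 call without the first double deletion array or either wild type array, and 3 without the second double deletion array.

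On the side of nitrogen control, 1 of the 5 GATA factors and their regulator Ure2 rose, the repressor gene GZF3 at 1.22 (limma adjusted p = 0.0115), a share of the list close to the 20.4% of all genes, and 4 were called higher after control centring. Of 13 genes under nitrogen catabolite repression 3 rose and 3 fell (20.4% and 12.2% of all genes), with a median of -0.02. After control centring 7 were called higher and 0 lower. The urea transporter DUR3 rose by 1.03 (limma adjusted p = 0.0144) and the glutamate dehydrogenase GDH2 by 0.64 (limma adjusted p = 0.00895), whereas the arginase CAR1 fell by 0.66 (limma adjusted p = 0.0234) and the allantoate permease DAL5 fell by 0.58 (limma adjusted p = 0.0122). Calls in this list numbered 0 without the first double deletion array or the first wild type array, and 1 without the second wild type array. GZF3 lost its call without the first double deletion array or the second wild type array. Of 3 peptide transporters 1 rose and 1 fell (20.4% and 12.2% of all genes): the di- and tripeptide transporter PTR2, itself an SPS target, rose by 0.83 (limma adjusted p = 0.0104) and OPT2 fell by 1.30 (limma adjusted p = 0.00418). PTR2 lost its call without either wild type array or the first double deletion array. In plus RPL12A and plus RPL12B against the double deletion 0 genes of these 7 lists passed with limma, where 0.221% and 0.11% of all genes did.

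**Figure D5:**
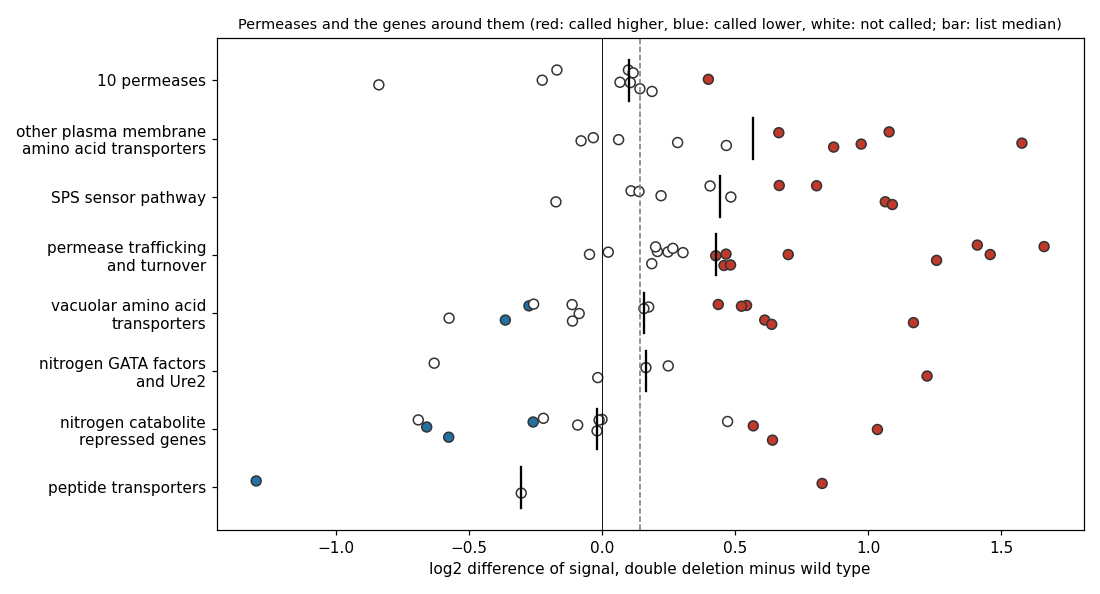
Log2 difference of signal, double deletion minus wild type (x axis), for the 10 permeases and 7 lists of related genes (y axis); each point is a gene, red if called higher, blue if called lower and white if not called, the bars are list medians and the dashed line is the median of all tested genes (0.14). The permease median lies at 0.10, and those of the other plasma membrane transporters, the SPS pathway and the trafficking genes at 0.57, 0.45 and 0.43.

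Markers that moved with the strains are given beside these results. LEU2 and HIS3, genes of leucine and histidine synthesis that W303 usually lacks in working form, were looked at after the values were known. LEU2 read 513 and 393 in the wild type, 2463 and 2417 in the double deletion, 1810.5 and 2158 in plus RPL12A, and 1797 and 2371 in plus RPL12B. HIS3 read 293 and 344 in the wild type, 904 and 1558 in the double deletion, 860 and 704 in plus RPL12A, and 979 and 922 in plus RPL12B. Both rose in the double deletion, LEU2 by 2.44 (limma adjusted p = 0.000923) and HIS3 by 1.90 (limma adjusted p = 0.00481), and their part in the permease values was not tested. Of 7 markers of a cells, 2 fell in the double deletion, BAR1 (-1.45, limma adjusted p = 0.00339) and MFA2 (-0.80, limma adjusted p = 0.046), and of 4 markers of alpha cells 1 rose, SAG1 (1.09, limma adjusted p = 0.0224), where 12.2% of all genes fell and 20.4% rose. The markers that were not called went both ways. Those of a cells were MFA1 at -0.38, STE6 at -0.15, AGA2 at 0.03, STE2 at 0.05 and ASG7 at 0.27. Those of alpha cells were STE3 at -0.44, MF(ALPHA)1 at -0.09 and MF(ALPHA)2 at 0.32. The mating types of the strains are not stated in the labels.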

How the data were processed

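Each of the 8 cultures gave 1 array, labelled from 10 ug of RNA. The authors deposited an intensity for every probe set of every array, a linear value computed by MAS5 according to the submitters' processing notes (version not given in the sources used here). All arrays had a 2% trimmed mean of about 500.2, as checked on the values. Of 10928 probe sets, 5498 stood for 5449 S. cerevisiae genes by the platform annotation. Where a gene had several, the one brightest on average (log2) was used. Genes above the 95th percentile of the 1746 S. pombe probe sets on at least 2 arrays, 5439 in number, were tested.

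The log2 signals were modelled with limma 3.58.1 in R 4.3.3 (lmFit, then eBayes with trend), using 1 mean per strain over all 8 arrays, 4 residual and 3.23 prior degrees of freedom. The 6 comparisons were tested two-sided, with Benjamini-Hochberg adjustment over all tested genes and a threshold of 0.05. The number of arrays limits the precision. All permeases were named, and of the other lists up to 4 called genes with the largest difference, all genes of lists described by role, and the 5 genes most like TAT1. The members and lists were chosen with earlier results of these data known. Alternatives were 3 other scalings (median, quantile, hybridisation controls), adding 16 before the log, raising values to background, testing all genes or a stricter selection, other variance models, the mean of probe sets, the replicate number or the 25S split as a block, the compared arrays alone, and leaving out each array. The fit was tested on simulated data with independent noise for each gene and array. No scaling, replicate or 25S effect was simulated, so that test does not cover them. Plots were made in Python 3.11.15 using matplotlib 3.10.9. No probe set was annotated for VBA5. Gene order came from RefSeq, and no positions are printed because no genome build goes with the arrays.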

Additional observations from a re-analysis of the deposited data

How the results depend on the processing

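With 2 arrays per strain, each call rests on few values. Comparing the double deletion with the wild type, the main count was 1 permease, DIP5. Median centring gave 3 (AGP1, GAP1 and TAT1, all lower), where 32.2% of all genes were called. Hybridisation control centring gave 5 (GAP1, BAP2, TAT2, DIP5 and LYP1, all higher), where 53.1% of all genes were called. No intensity trend gave 0 (DIP5 limma adjusted p = 0.0772), against 28.3% of all genes. The 25S split as a block and the 4 compared arrays alone each gave 2, TAT1 and DIP5 (40.1% and 42.1% of all genes). Leaving out 1 array at a time gave 0 to 2. GAP1 turned from -0.17 to 0.24 after control centring, as the median of all genes moved from 0.14 to 0.55. Over the 21 alternatives DIP5 was called in 14, with log2 differences of 0.20 to 0.81, and TAT1 in 8, with -1.08 to -0.43.

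The replicate numbers are not stated to mark a shared culture or day, so they pair nothing by design. Over all genes the replicate differences correlated at 0.795 between the plasmid strains and at 0.0498 to 0.414 in the other pairs of strains. With the replicate block, the count against the wild type was 3 for the double deletion, compared with 43.4% of all genes. AGP1 and TAT1 were lower there and DIP5 higher. The count was 1, BAP2, for plus RPL12A and for plus RPL12B (limma adjusted p = 0.0309 and 0.0377), compared with 13.2% and 22.4%. The F test with this block gave 1 (BAP2), compared with 26.3%.

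Against the wild type, control centring gave 4 permeases in plus RPL12A (AGP1, BAP2, DIP5 and LYP1), compared with 11.6% of all genes. In plus RPL12B it gave 2 (BAP2 and LYP1), compared with 18.2%, and the 25S block gave 1 (TAT1), compared with 22.4%. Control centring moved the median of all genes to 0.28 in plus RPL12A and 0.31 in plus RPL12B. The F test gave 3 with control centring (BAP2, DIP5 and LYP1), 1 with the 25S block (TAT1) and 0 in the main fit. Of all genes, 28.9%, 19% and 10.2% passed it in that order. The low against high 25S comparison gave 1 with control centring (BAP3), compared with 3.22% of all genes. In both plasmid strains against the double deletion, and between the plasmid strains, 0 permeases were called under every alternative. Differences called in neither fit changed sign in 96 of 1260 combinations of gene, comparison and alternative. Over all genes, calls between the double deletion and the wild type numbered 1770, and 820 with quantile normalisation, 2886 with control centring, 478 and 256 without the first or second wild type array, and 238 and 1129 without the first or second double deletion array. After median centring 548 were higher and 1206 lower, against 1109 and 661 as deposited. The causes were not tested.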
